A study of Mus musculus with 9 samples.

Results

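The unfolded protein response and endoplasmic reticulum (ER)-associated degradation genes described here are a list of 41 genes grouped by function. The list holds ER chaperones, the sensors and regulators of the response, the ER-associated degradation (ERAD) machinery, the translocon with its signal peptidase, and COPII coat genes, and leaves out the disulfide isomerases and the amino acid targets of ATF4. Of the 41 genes, 40 were among the 14108 genes measured, and *Derl3* was not, so it has no value here. The measurements are RNA-seq counts of GFP-positive cells sorted from 9 mammary tumours of the models HR1, LM1 and LM9, with 3 tumours in each, made to ask how signalling by the transcription factor NFIB relates to metastatic colonization.

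Each tumour grew from 250000 cells of 1 line in Matrigel and PBS, placed in the mammary fat pad of a female NOD/SCID mouse of 4 to 8 weeks, an immunodeficient strain, and was taken before it reached 1500 mm3. HR1 is a mouse mammary cancer line from a tumour of a transgenic animal that expressed PIK3CA with an activating mutation under the CAG promoter. LM1 and LM9 are each a single line grown from the lungs of a mouse that bore a tumour of HR1 cells carrying a mobilized *piggyBac* transposon, so that all 3 groups share the PIK3CA transgene and the host strain. The labels do not say whether the HR1 cells carried any part of the transposon system. The 3 tumours of a group are replicates of 1 line, and p-values measure the spread between these tumours only.

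The ER folds proteins that enter it through the translocon, and when unfolded protein builds up, the sensors IRE1 (encoded by *Ern1*), PERK (*Eif2ak3*) and ATF6 lower translation and raise the transcription of chaperones and degradation genes. IRE1 splices the *Xbp1* message to give an active transcription factor, and activated ATF6 binds the ER stress response element in chaperone promoters. Proteins that fail to fold are drawn back out of the ER and degraded by the proteasome, the route called ERAD, while folded cargo leaves in COPII vesicles.

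In these tumours *Ern1* rose and *Derl2* fell against HR1 in both LM lines, and *Crebrf* fell in LM1 and rose in LM9. *Xbp1*, *Calr* and *Spcs3* fell in LM9, while *Hspa5* passed the test in no comparison. Gene counts give the total message of each gene and cannot tell spliced from unspliced *Xbp1*, nor an active from an inactive sensor.

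Total counts per tumour were 32393958 to 46681945, and the lowest count of any measured member in any tumour was 183. The targeted gene of the study, *Nfib*, was at 1343 CPM (its share of the counts of a tumour, with the library size scaled by TMM factors) in HR1 replicate 1 against 23.9 and 18.3 CPM in the other HR1 tumours, and at 420.6 to 791 CPM in the 6 LM tumours. The library labelled HR1 replicate 1 therefore went against its group in *Nfib*, and the differences of LM1 and of LM9 from HR1 below are given with and without it. Whether this library was swapped or mixed was not tested, and each HR1 mean and each call with the 9 tumours rests on its label. The members' summed level was 21840.0 CPM in that tumour, 14657 and 15301 CPM in the other HR1 tumours, and 13924 to 15603 CPM in the LM tumours. Its level was more than 1.5 times the mean of the other HR1 tumours in 16 of the 40 members (40%) and below that mean by more than 1.5 times in 1 (2.5%). Of 10656 genes above 1 CPM in every tumour, 20.6% were above and 22.6% below by these limits. The members' median ratio was 1.34 and that of those genes 0.979.

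The defining epithelial genes were low in all 9 tumours, with *Epcam* at 0.0254 to 4.49 CPM and *Cdh1* at 0.0916 to 1.20 CPM, and *Krt8* was not among the genes measured. *Krt14* was at 1.56, 31.4 and 109 CPM in HR1, 152 to 175 CPM in LM1 and 12.2 to 15.4 CPM in LM9. Of the 6 epithelial markers measured, *Krt14*, *Krt18* and *Krt5* were called lower in LM9 versus LM1 (edgeR, adjusted p under 0.05) and 0 higher. *Krt18* and *Krt5* were at no more than 2.48 and 10.7 CPM. Summed CPM of the 10 leukocyte markers was 197 to 844 in HR1, 158 to 174 in LM1 and 193 to 225 in LM9, with none at 0 in all tumours. Of the 10, 6 were lower in LM1 versus HR1 and 7 in LM9 versus HR1 (edgeR, adjusted p under 0.05), or 5 and 7 without HR1 replicate 1. Their median log2 fold changes were -1.50 and -2.33, and the LM9 sum was mostly *Cd68*. For 8 fibroblast markers the sum was 31868 CPM in HR1 replicate 1, 10002 and 14950.0 CPM in the other HR1 tumours, 7796 to 10502 CPM in LM1 and 7549 to 8230.1 CPM in LM9. *Col1a1* held most of it in 8 of the tumours, and in HR1 replicate 1 *Dcn* was the highest, at 17605 CPM against 15.9 to 645 CPM in the others. *Col1a2* was at 44.2 CPM in that tumour and 35 to 73.2 CPM in the LM tumours, against 1472 and 2726 CPM in the other HR1 tumours. Of the 8, 3 were called lower in LM1 versus HR1 and 7, all but *Col1a1*, in LM9 versus HR1, with median log2 fold changes of -1.63 and -2.73. Without HR1 replicate 1 the counts were the same, and the medians were -0.61 and -1.69. In LM1 versus HR1 the values of *Dcn*, *Lum* and *Fap* then turned above 0. The sums for 5 of 7 endothelial markers were 9.37 to 31.8 CPM in HR1, 165 to 228 CPM in LM1 and 260.4 to 297 CPM in LM9, in LM mostly *Cdh5* and *Kdr*, which were called higher in both lines, while *Pecam1* and *Emcn* were called lower in LM9 versus HR1. Of 8 B and plasma cell markers, cells known for a large ER, only *Cd79b*, at 0.0453 to 2.63 CPM, and *Sdc1*, at 161 to 657 CPM, were among the genes measured. Both were called lower in LM9 versus HR1, with log2 fold changes of -4.43 and -1.57, or -3.52 and -1.84 without HR1 replicate 1. In LM1 versus HR1 only *Cd79b* was called lower with the 9 tumours, and both were without that tumour. *Sdc1* was also called lower in LM9 versus LM1. The part of these cell types in the results below was not tested, and in sorted bulk cells fewer cells of a type and less RNA per cell cannot be told apart.

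The promoters of several members carry the ER stress response element (ERSE), the sequence through which ATF6 together with NF-Y is known to act. In RefSeq promoters of GRCm38.p6, 300-base windows of 250 bases before to 50 bases after a start, 34 of the 41 genes had a window. ERSE, spelled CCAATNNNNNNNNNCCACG and searched on both strands, stood in the windows of 8 of these 34 genes (23.5%), *Hspa5*, *Hsp90b1*, *Calr*, *Canx*, *Dnajc3*, *Creld2*, *Syvn1* and *Derl3*, and in 39 of all 32851 windows (0.119%). By gene, 19 of the 11112 measured genes with a window held it (0.171%), *Derl3* not among them. ERSE-II, spelled ATTGG, any 1 base and CCACG, stood in those of *Herpud1* and *Dnajb11* and in 12 windows in all. The core of the unfolded protein response element, TGACGTGG, stood in those of *Vcp* and *Sec24d* and in 222 windows in all (0.676%). The motifs share letters, since ATTGG is the reverse complement of CCAAT, and the CGTGG that ends the core is that of CCACG. A match describes these windows and is no measured binding. In 25 of the 37 windows of members the start was that of the RefSeq gene. Gene places given below are those of GENCODE M21, so a site can lie inside a gene as placed there, as that of *Hspa5* does. The sequences below are those of the members the results turn on, 5′ to 3′ on the strand of the gene, with the matched letters of each motif in capitals and its free positions in lower case.

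*Hspa5*, ERSE, chr2:34772021-34772047, plus strand: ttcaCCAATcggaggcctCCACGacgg
*Hsp90b1*, upstream ERSE, chr10:86705634-86705660, minus strand: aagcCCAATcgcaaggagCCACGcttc
*Hsp90b1*, downstream ERSE in the other orientation, chr10:86705529-86705555, minus strand: agtgCGTGGtgaggcacgATTGGtgag
*Calr*, ERSE in the other orientation, chr8:84847071-84847097, minus strand: aacgCGTGGtcgaccctcATTGGccca
*Canx*, ERSE, chr11:50325796-50325822, minus strand: ttgaCCAATcaccacgctCCACGaaga
*Dnajc3*, ERSE, chr14:118937823-118937849, plus strand: acaaCCAATcagcgccaaCCACGaccc
*Herpud1*, ERSE-II, chr8:94386369-94386395, plus strand: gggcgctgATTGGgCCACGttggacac
*Dnajb11*, ERSE-II, chr16:22857844-22857870, plus strand: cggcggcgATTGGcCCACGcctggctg
*Vcp*, core element, chr4:43000606-43000629, minus strand: cggccaatTGACGTGGcgttacta

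Levels were compared between genes only per length, as CPM per kilobase of exon. The lumenal lectin chaperone *Calr* was highest at 1091 CPM per kb over the 9 tumours, followed by the Hsp70 chaperone BiP (*Hspa5*) at 558 and the ER Hsp90 GRP94 (*Hsp90b1*) at 542 CPM per kb. The sensors were near the bottom of the order. *Atf6* was at 9.24, *Ern1* at 4.01 and *Eif2ak3* at 3.97 CPM per kb, and *Crebrf*, a negative regulator of the related factor CREB3, was lowest at 2.19 CPM per kb. *Xbp1*, the target of IRE1, stood above its sensor at 48.4 CPM per kb. The order of neighbours depended on the group, since *Hsp90b1* was above *Hspa5* in LM9 (704 against 605 CPM per kb) and below it in LM1 (389.7 against 499.9 CPM per kb).

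**Figure D1:**
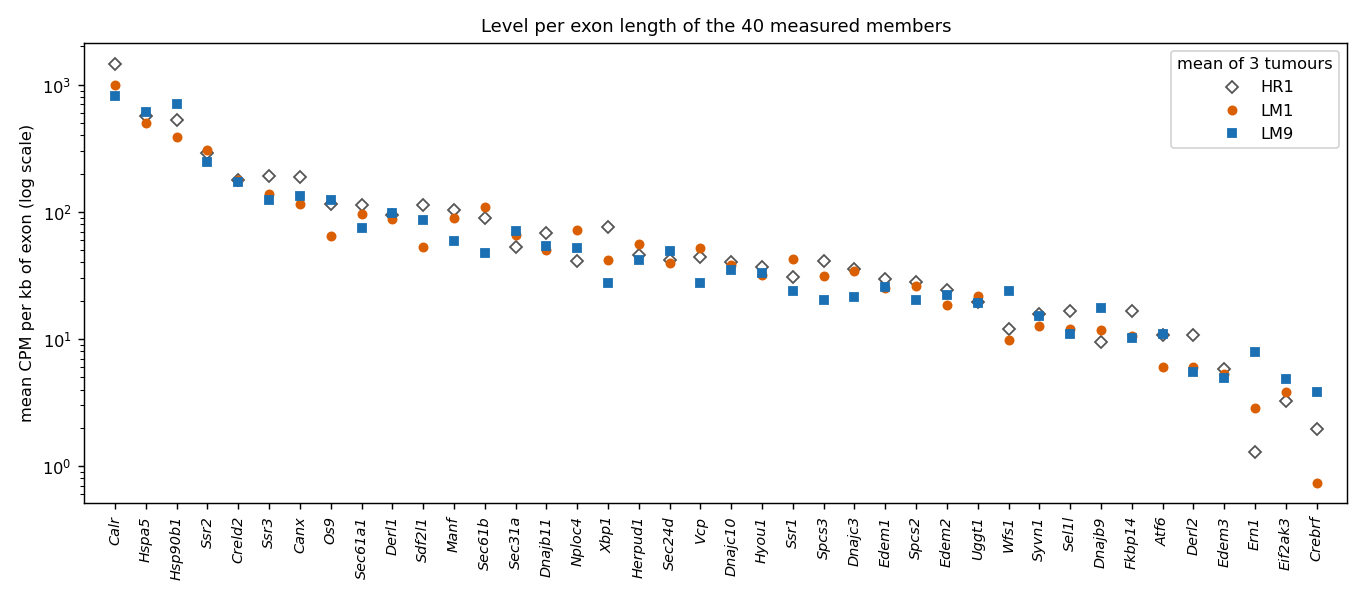
Mean CPM per kilobase of exon (vertical log axis) of the 40 measured genes, ordered by their mean over the 9 tumours, with open diamonds for HR1, orange circles for LM1 and blue squares for LM9. *Calr* leads at 1091 CPM per kb and the symbols of *Ern1* and *Crebrf*, at the low end, lie farthest apart.

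The ratio of the highest to the lowest group mean was 6.04 for *Ern1*, 5.19 for *Crebrf*, 2.76 for *Xbp1* and 2.39 for *Wfs1*, against 1.21 for *Hspa5*, 1.15 for *Hyou1* and 1.04 for *Creld2*. With HR1 replicate 1 left out of the HR1 mean it was 4.97, 5.19, 1.91 and 2.39 for the first 4, so that *Crebrf* was above *Ern1*, and *Xbp1* was below *Dnajb9*, at 2.37, and *Sec61b*, at 2.29. The sections that follow take the genes by role, with the values of replicates 1, 2 and 3 of each group in that order, and then the counts for each comparison. Log2 fold changes (log2FC, on TMM-scaled counts), their standard errors (SE) and adjusted p-values are from the edgeR quasi-likelihood test, with p adjusted by Benjamini-Hochberg over all genes tested, and a gene is called higher or lower where the adjusted p is under 0.05.

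*Ern1*, the gene of the IRE1 kinase and endonuclease (chr11:106394650-106487852), was lowest in HR1 and highest in LM9. Its level was 6.08, 11.2 and 14.7 CPM in HR1, 20.1, 30.7 and 19 CPM in LM1 and 77.2, 59 and 56.8 CPM in LM9. No group overlapped another, and HR1 replicate 1 was the lowest of the 9 tumours. The log2 fold change was 1.13 (SE 0.32, adjusted p = 0.0252) in LM1 versus HR1, 2.59 (SE 0.34, adjusted p = 0.000735) in LM9 versus HR1 and 1.47 (SE 0.32, adjusted p = 0.0149) in LM9 versus LM1. Left without HR1 replicate 1, the first pair of values was 0.86 and 2.32, with all 3 calls kept. Of the 17 alternatives, 4 ended the call in LM1 versus HR1, among them leaving out HR1 replicate 2 or LM1 replicate 1 or 2, with an adjusted p of up to 0.101.

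*Xbp1* (chr11:5520659-5525893), whose message IRE1 splices, was highest in HR1 and lowest in LM9. Its level was 399.7, 177 and 164 CPM in HR1, 123, 134 and 150.0 CPM in LM1 and 86.6, 83 and 98.2 CPM in LM9, so that the LM9 tumours were below the LM1 tumours and these below the HR1 tumours. HR1 replicate 1 was 2.35 times the mean of the other HR1 tumours. *Xbp1* fell in LM9 versus HR1, with a log2FC of -1.47 (SE 0.32, adjusted p = 0.00703), or -0.93 (adjusted p = 0.000259) without that tumour. The values for LM1 versus HR1, -0.86 (SE 0.31, adjusted p = 0.0605, or -0.32 without HR1 replicate 1), and for LM9 versus LM1, -0.60 (SE 0.31, adjusted p = 0.194), did not pass the test. The latter was -0.61 (adjusted p = 0.00247) and passed once HR1 replicate 1 was left out.

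*Atf6* (chr1:170704674-170867771), the sensor that is itself cleaved to a transcription factor, was lower in LM1 than in both other groups. The tumours had 77.1, 127 and 94.7 CPM in HR1, 52.4, 65.2 and 48.7 CPM in LM1 and 110.3, 97 and 94.6 CPM in LM9, and only the LM1 values lay apart. The log2 fold change was -0.85 (SE 0.20, adjusted p = 0.0117) in LM1 versus HR1 and 0.86 (SE 0.20, adjusted p = 0.0182) in LM9 versus LM1, and 0.01 (SE 0.20, adjusted p = 0.964, or -0.14 without HR1 replicate 1) in LM9 versus HR1, which did not pass. HR1 replicate 1 was the lowest HR1 tumour, and without it the first value was -0.99.

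*Eif2ak3*, the gene of PERK, which phosphorylates eIF2α, was at 21.9, 15.5 and 21 CPM in HR1, 23, 26.5 and 19.7 CPM in LM1 and 32.6, 27.2 and 28.1 CPM in LM9, and HR1 and LM1 overlapped. *Eif2ak3* rose in LM9 versus HR1, with a log2FC of 0.59 (SE 0.19, adjusted p = 0.0317), with 0.69 without HR1 replicate 1. Neither LM1 versus HR1, 0.24 (SE 0.19, adjusted p = 0.336, or 0.34 without HR1 replicate 1), nor LM9 versus LM1, 0.35 (SE 0.18, adjusted p = 0.204), passed. An unnamed annotated transcript on the opposite strand shares 8.05% of its exon bases, and the strand setting of the gene counts is not stated.

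*Crebrf* (chr17:26715650-26776635) moved in opposite directions in the LM lines. Its level was 20.7, 14.3 and 15.4 CPM in HR1, 5.96, 7.38 and 5.74 CPM in LM1 and 36.7, 33 and 29.3 CPM in LM9, with the LM1 tumours all below and the LM9 tumours all above the HR1 tumours. It fell in LM1 versus HR1, with a log2FC of -1.40 (SE 0.20, adjusted p = 0.00117), and rose in LM9 versus HR1, with a log2FC of 0.97 (SE 0.19, adjusted p = 0.0047). The direct difference, LM9 versus LM1, was 2.37 (SE 0.20, adjusted p = 0.000491), a 5.18-fold difference. The differences from HR1 were -1.22 and 1.15 when HR1 replicate 1 was left out.

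*Wfs1* (chr5:36966104-36989205), an ER membrane protein that restrains ATF6 signalling, was higher in LM9 than in the other groups. Its values were 39.5, 50.8 and 46.9 CPM in HR1, 37.8, 39.7 and 34.6 CPM in LM1 and 83.6, 92.9 and 92.1 CPM in LM9, with HR1 and LM1 overlapping. The log2 fold change was 0.97 (SE 0.13, adjusted p = 0.000929, or 0.88 without HR1 replicate 1) in LM9 versus HR1, 1.26 (SE 0.13, adjusted p = 0.000978) in LM9 versus LM1 and -0.29 (SE 0.13, adjusted p = 0.119) in LM1 versus HR1. The last passed the test without HR1 replicate 1, at -0.38 (adjusted p = 0.0206), and the LM9 calls were kept.

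**Figure D2:**
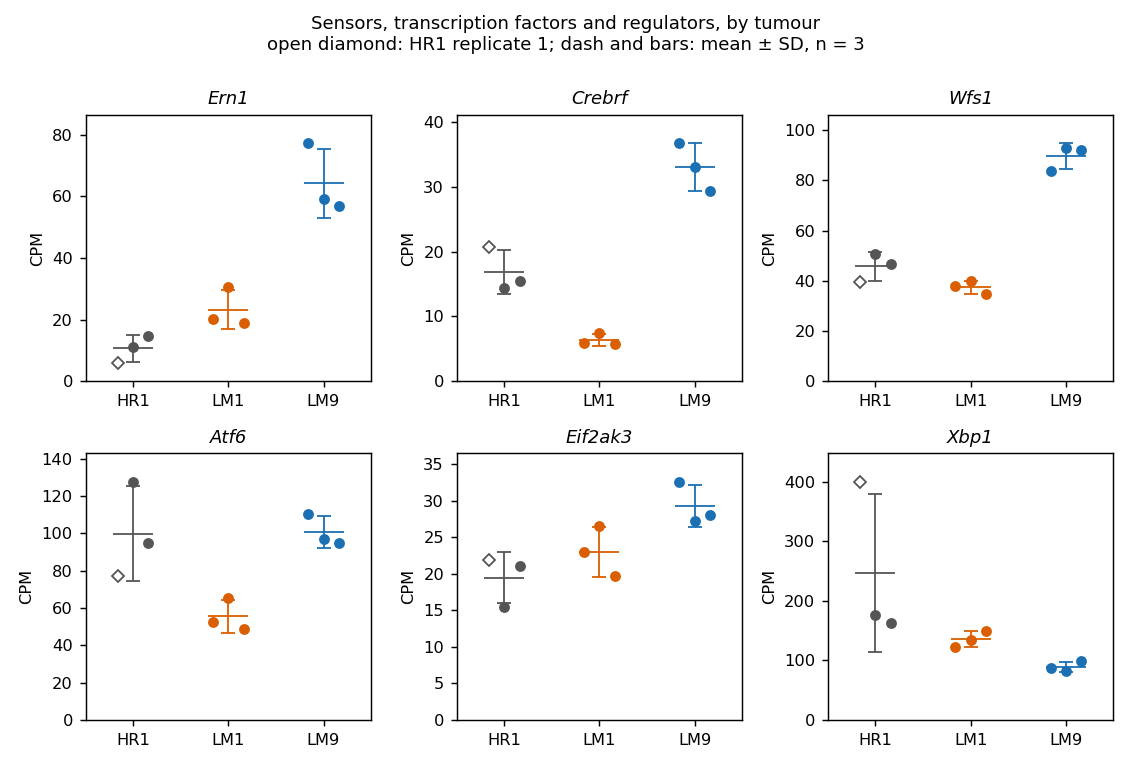
CPM (vertical axis, from 0) of the 6 sensors, transcription factors and regulators in each tumour of HR1 (grey), LM1 (orange) and LM9 (blue), with the mean and SD of each group and HR1 replicate 1 as an open diamond. *Ern1* and *Crebrf* show 3 groups that do not overlap, and HR1 replicate 1 lies far above the other HR1 tumours in *Xbp1*.

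*Hspa5* (chr2:34771970-34777547), the best known target of the response among the chaperones, was at 2491, 2252 and 2479.5 CPM in HR1, 2260.3, 2179.6 and 1903 CPM in LM1 and 2575, 2453 and 2643 CPM in LM9. HR1 overlapped both LM groups, and HR1 replicate 1 was 1.05 times the mean of the other HR1 tumours. The log2 fold change of *Hspa5* was -0.19 (SE 0.13, adjusted p = 0.291) in LM1 versus HR1, 0.09 (SE 0.13, adjusted p = 0.616) in LM9 versus HR1 and 0.27 (SE 0.13, adjusted p = 0.159) in LM9 versus LM1, and none passed the test. The differences from HR1 were -0.15 and 0.12 without HR1 replicate 1. For *Hsp90b1*, whose window has ERSE in both orientations, the levels were 3238, 1634 and 1565 CPM in HR1, 1645, 1679.9 and 1389.5 CPM in LM1 and 2928, 2529 and 3059 CPM in LM9. Every LM9 tumour was above every LM1 tumour, and HR1 replicate 1 was the highest of all. A pseudogene on the opposite strand shares 10.3% of its exon bases. *Hsp90b1* did not pass in any comparison with the 9 tumours, with 0.40 (adjusted p = 0.26) in LM9 versus HR1 and 0.85 (adjusted p = 0.0552) in LM9 versus LM1, and without HR1 replicate 1 these were 0.83 (adjusted p = 0.000802) and 0.85 (adjusted p = 0.000558).

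The lectin chaperones, which hold glycoproteins during folding, were lower in every LM tumour than in every HR1 tumour. *Calr* (chr8:84841850-84846934) was at 5502, 3505 and 3654 CPM in HR1, 2848, 2636 and 3099 CPM in LM1 and 2363, 2114 and 2559 CPM in LM9, in 3 groups that did not overlap. It fell in LM9 versus HR1, with a log2FC of -0.85 (SE 0.20, adjusted p = 0.00951), or -0.61 (adjusted p = 0.00311) without HR1 replicate 1, while -0.56 (SE 0.20, adjusted p = 0.0531, or -0.32 without HR1 replicate 1) in LM1 versus HR1 and -0.29 (SE 0.20, adjusted p = 0.318) in LM9 versus LM1 did not pass. Its membrane-bound relative *Canx* was at 1029, 793 and 819 CPM in HR1, 516 to 584 CPM in LM1 and 567 to 705 CPM in LM9. *Canx* fell against HR1 in LM1, with a log2FC of -0.70 (adjusted p = 0.00887, or -0.56 without HR1 replicate 1), and in LM9, with a log2FC of -0.49 (adjusted p = 0.0317, or -0.36 without HR1 replicate 1). Both LM comparisons share the HR1 tumours. *Uggt1*, the glucosyltransferase that returns unfolded glycoproteins to these lectins, lay at 216 to 287 CPM in HR1, 264 to 313 in LM1 and 237 to 261 in LM9 and passed in no comparison.

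Among the J-domain cofactors that assist BiP, *Dnajb9* (ERdj4) was highest in LM9. The tumours had 35.1, 15.7 and 22.2 CPM in HR1, 27.3, 32.7 and 29.5 CPM in LM1 and 46.4, 48 and 40.1 CPM in LM9. All LM9 tumours were above the others, and HR1 replicate 1 was the highest of HR1. *Dnajb9* rose in LM9 versus HR1, with a log2FC of 0.88 (SE 0.26, adjusted p = 0.0258), against 0.30 (SE 0.26, adjusted p = 0.406) in LM1 versus HR1 and 0.59 (SE 0.26, adjusted p = 0.137) in LM9 versus LM1, which did not pass. With HR1 replicate 1 left out all 3 passed, at 1.25, 0.67 and 0.58. *Dnajb11* (ERdj3) fell in LM1 versus HR1, with a log2FC of -0.43 (adjusted p = 0.0287, or -0.39 without HR1 replicate 1), and had a log2FC of -0.35 (adjusted p = 0.0555, or -0.31 without HR1 replicate 1) in LM9 versus HR1. *Dnajc10* (ERdj5) passed in no comparison.

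*Dnajc3* (p58IPK, an inhibitor of PERK) and the secreted factor *Manf* depended on HR1 replicate 1. *Dnajc3* was at 362, 88.7 and 96.7 CPM in HR1, 179, 189 and 165 CPM in LM1 and 109, 112 and 111 CPM in LM9, so that this tumour was 3.91 times the mean of the other HR1 tumours, the highest ratio of any member. *Dnajc3* in LM1 versus HR1 had a log2 fold change of -0.04 (adjusted p = 0.956), and 0.95 (adjusted p = 0.000118) without it. *Manf* was at 660.4, 207 and 222 CPM in HR1, 347, 287 and 317 CPM in LM1 and 194, 200.4 and 226 CPM in LM9. For *Manf* the same comparison gave -0.19 (adjusted p = 0.733), and 0.57 (adjusted p = 0.00413) without it, so the sign turned for both genes. In LM9 versus HR1 *Dnajc3* had a log2FC of -0.72 (adjusted p = 0.247, or 0.26 without HR1 replicate 1) and *Manf* of -0.81 (adjusted p = 0.134, or -0.05 without HR1 replicate 1).

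*Sdf2l1*, a partner of ERdj3, was at 215, 77.2 and 85.8 CPM in HR1, 59, 58 and 58.5 CPM in LM1 and 85.8, 91.9 and 108 CPM in LM9. The LM1 tumours were the lowest and HR1 replicate 1 the highest. It fell in LM1 versus HR1, with a log2FC of -1.11 (SE 0.35, adjusted p = 0.0383), or -0.47 (adjusted p = 0.011) without HR1 replicate 1, and had a log2FC of -0.40 (SE 0.35, adjusted p = 0.378, or 0.23 without HR1 replicate 1) in LM9 versus HR1 and 0.70 (SE 0.35, adjusted p = 0.177) in LM9 versus LM1. The call of *Sdf2l1* in LM1 was lost in 9 of 17 alternatives, among them leaving out any LM1 or LM9 tumour. The prolyl isomerase *Fkbp14* was at 57.4 to 81.9 CPM in HR1, 39.9 to 51.6 CPM in LM1 and 40 to 44.6 CPM in LM9. *Fkbp14* fell in LM1 versus HR1, with a log2FC of -0.65 (adjusted p = 0.0162, or -0.51 without HR1 replicate 1), and in LM9 versus HR1, with a log2FC of -0.72 (adjusted p = 0.00925, or -0.58 without HR1 replicate 1), and *Plekha8* on the opposite strand shares 5.01% of its exon bases. *Hyou1*, a nucleotide exchange factor for BiP, and *Creld2* passed in no comparison, with or without HR1 replicate 1.

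In ERAD, *Sel1l* and *Derl2* fell against HR1 in both LM lines, *Vcp* fell in LM9 and *Nploc4* rose in LM1. *Herpud1* (chr8:94386438-94395377), a scaffold of the HRD1 ligase and a gene with ERSE-II, was at 132, 91.8 and 96.3 CPM in HR1, 114, 134 and 143 CPM in LM1 and 102, 93.9 and 97.5 CPM in LM9. HR1 and LM9 overlapped, and the LM1 tumours were above the LM9 tumours. Its log2 fold change was 0.29 (SE 0.16, adjusted p = 0.197) in LM1 versus HR1, -0.12 (SE 0.16, adjusted p = 0.573, or 0.06 without HR1 replicate 1) in LM9 versus HR1 and -0.41 (SE 0.16, adjusted p = 0.102) in LM9 versus LM1, none past the threshold. Without HR1 replicate 1 the first was 0.48 (adjusted p = 0.0105) and the last -0.42 (adjusted p = 0.0135), and both passed.

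*Sel1l*, the adaptor that holds the HRD1 ligase, was at 129, 154 and 143 CPM in HR1, 99.1, 114 and 92.6 CPM in LM1 and 88.8, 95.3 and 98.2 CPM in LM9. Every LM tumour was below every HR1 tumour. *Sel1l* fell in LM1 versus HR1, with a log2FC of -0.48 (adjusted p = 0.0202, or -0.54 without HR1 replicate 1), and in LM9 versus HR1, with a log2FC of -0.60 (adjusted p = 0.00726, or -0.66 without HR1 replicate 1), while the ligase itself, *Syvn1*, had a log2FC of -0.30 (adjusted p = 0.111, or -0.31 without HR1 replicate 1) and -0.05 (adjusted p = 0.783, or -0.07 without HR1 replicate 1). The derlins form the channel through which proteins leave the ER, and *Derl2* was at 122, 70.9 and 68.3 CPM in HR1, 48.2, 43.4 and 53 CPM in LM1 and 39.7, 45.2 and 48.2 CPM in LM9. It fell in LM1 versus HR1, with a log2FC of -0.85 (SE 0.23, adjusted p = 0.019), and in LM9 versus HR1, with a log2FC of -0.97 (SE 0.23, adjusted p = 0.00971), or -0.52 and -0.65 without HR1 replicate 1, with -0.12 (SE 0.23, adjusted p = 0.731) in LM9 versus LM1. *Mis12* on the opposite strand shares 2.87% of its exon bases. *Derl1* was at 281 to 375 CPM in HR1, 253 to 326 in LM1 and 309 to 342 in LM9 and passed in no comparison.

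The mannosidases *Edem1*, *Edem2* and *Edem3*, which mark glycoproteins for degradation, passed in no comparison, with or without HR1 replicate 1. *Os9*, the lectin that reads this mark, was at 506, 192 and 213 CPM in HR1, 187, 172 and 152 CPM in LM1 and 331, 320.5 and 329.7 CPM in LM9. The LM9 tumours were above the LM1 tumours and HR1 replicate 1 was highest. *Os9* had a log2FC of 0.94 (adjusted p = 0.0727) in LM9 versus LM1 with the 9 tumours and 0.94 (adjusted p = 0.000181) without HR1 replicate 1. Its differences from HR1 were -0.83 (adjusted p = 0.0799, or -0.24 without HR1 replicate 1) in LM1 and 0.11 (adjusted p = 0.814, or 0.69 with adjusted p = 0.00114 without HR1 replicate 1) in LM9.

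The cytosolic ATPase *Vcp* (p97), which pulls substrates from the membrane, and its cofactor *Nploc4* were both higher in LM1 than in LM9. *Vcp* (chr4:42979963-43000507) was at 236, 212 and 191 CPM in HR1, 259, 234 and 264 CPM in LM1 and 119, 143 and 138 CPM in LM9, with the LM9 tumours below all others. *Vcp* fell in LM9 versus HR1, with a log2FC of -0.68 (SE 0.13, adjusted p = 0.00476), and in LM9 versus LM1, with a log2FC of -0.92 (SE 0.14, adjusted p = 0.0032), and had a log2FC of 0.25 (SE 0.13, adjusted p = 0.182) in LM1 versus HR1. A gene on the opposite strand shares 7.26% of its exon bases. *Nploc4* (chr11:120380370-120437708) was at 162, 209 and 214 CPM in HR1, 310.3, 361 and 361 CPM in LM1 and 232, 255 and 255 CPM in LM9, with LM1 above LM9 and LM9 above HR1. *Nploc4* rose in LM1 versus HR1, with a log2FC of 0.82 (SE 0.15, adjusted p = 0.00347), and was lower in LM9 versus LM1, with a log2FC of -0.48 (SE 0.15, adjusted p = 0.0469), with 0.34 (SE 0.15, adjusted p = 0.0875, or 0.23 without HR1 replicate 1) in LM9 versus HR1. Without HR1 replicate 1 the log2 fold change in LM1 versus HR1 was 0.71 for *Nploc4*, and for *Vcp* 0.33 (adjusted p = 0.045), which passed, and that of *Vcp* in LM9 versus HR1 was -0.59. The *Nploc4* call in LM9 versus LM1 was lost when any LM1 or LM9 tumour was left out, with an adjusted p of up to 0.163.

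**Figure D3:**
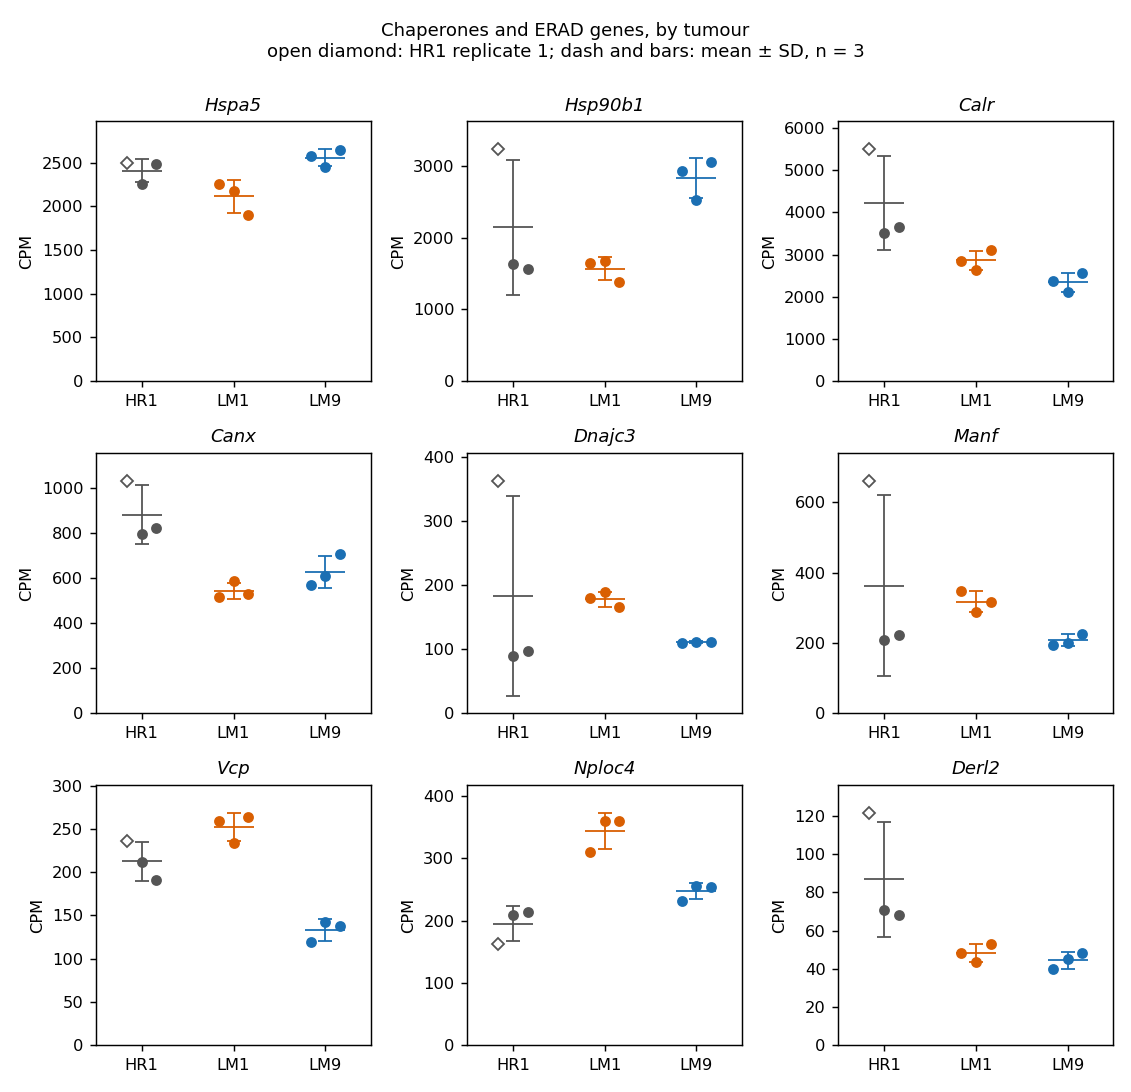
CPM (vertical axis, from 0) of 6 chaperone genes and 3 ERAD genes in each tumour, drawn as points with the mean and SD of each group (n = 3), HR1 grey, LM1 orange, LM9 blue, and HR1 replicate 1 as an open diamond. This tumour is at 3.91 times the mean of the other HR1 tumours in *Dnajc3*, 3.08 times in *Manf* and 1.05 times in *Hspa5*.

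The translocon genes, which carry new proteins into the ER, had a log2 fold change below 0 in LM9 versus LM1 in all 7 cases, though only *Ssr1* passed the test with the 9 tumours. Over all genes 49.7% were below 0, and of 16 other translocon genes 8 were, with 1 called lower. The summed level of the 7 genes was 3517, 2242 and 2628 CPM in HR1, 2555, 2403 and 2840.2 CPM in LM1 and 1894, 1906 and 2009 CPM in LM9. The LM9 sums lay below all others. *Ssr1* (chr13:37966605-37994217), a subunit of the translocon-associated TRAP complex, was at 397, 271 and 295 CPM in HR1, 450.1, 419.9 and 463 CPM in LM1 and 247, 248 and 252 CPM in LM9. It rose in LM1 versus HR1, with a log2FC of 0.47 (SE 0.16, adjusted p = 0.0455), and was lower in LM9 versus LM1, with a log2FC of -0.83 (SE 0.16, adjusted p = 0.00853), with -0.36 (SE 0.16, adjusted p = 0.0918) in LM9 versus HR1. HR1 replicate 1 lay between the other HR1 tumours and LM1, and without it the differences of *Ssr1* from HR1 were 0.66 in LM1 and -0.18 in LM9. The call in LM1 versus HR1 was lost in 11 of 17 alternatives, among them leaving out any tumour other than HR1 replicate 1, with an adjusted p of up to 0.137.

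Of the other TRAP subunits, *Ssr3* fell in LM9 versus HR1, with a log2FC of -0.64 (adjusted p = 0.0323, or -0.37 without HR1 replicate 1), and *Ssr2*, which shares 12.8% of its exon bases with a pseudogene on the opposite strand, passed in no comparison. The channel subunit *Sec61a1* was at 714, 705 and 857 CPM in HR1, 612, 606 and 713 CPM in LM1 and 488, 491 and 526 CPM in LM9 and fell in LM9 versus HR1, with a log2FC of -0.60 (adjusted p = 0.00927, or -0.64 without HR1 replicate 1). An antisense gene shares 8.16% of its exon bases. *Sec61b*, the small tail-anchored subunit, was at 215, 76.8 and 50.7 CPM in HR1, 149, 112 and 157 CPM in LM1 and 53.8, 65.8 and 62.8 CPM in LM9. HR1 replicate 1 was 3.37 times the mean of the other HR1 tumours in *Sec61b*, and in LM1 versus HR1 the gene had a log2FC of 0.29 (adjusted p = 0.65) with that tumour and 1.14 (adjusted p = 0.00146) without it.

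*Spcs3*, a subunit of signal peptidase, was at 192, 101 and 132 CPM in HR1, 111, 96.9 and 115 CPM in LM1 and 66.1, 72.3 and 73 CPM in LM9. The LM9 tumours were below all others. It fell in LM9 versus HR1, with a log2FC of -1.01 (SE 0.22, adjusted p = 0.00674), or -0.72 (adjusted p = 0.0019) without HR1 replicate 1, and had a log2FC of -0.40 (SE 0.22, adjusted p = 0.182, or -0.11 without HR1 replicate 1) in LM1 versus HR1 and -0.61 (SE 0.22, adjusted p = 0.072) in LM9 versus LM1. *Spcs2* of the same complex had a log2FC of -0.46 (adjusted p = 0.232, or 0.03 without HR1 replicate 1) in LM9 versus HR1 and did not pass. Of the COPII genes, *Sec31a* of the outer coat rose in LM9 versus HR1, with a log2FC of 0.44 (adjusted p = 0.0229, or 0.49 without HR1 replicate 1), with 368 to 441 CPM in HR1 and 526 to 593 CPM in LM9, and the cargo adaptor *Sec24d* had a log2FC of 0.25 (adjusted p = 0.307, or 0.46 with adjusted p = 0.0183 without HR1 replicate 1) and was called higher only without that tumour.

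In LM1 versus HR1, 3 of the 40 members were called higher (*Ern1*, *Nploc4*, *Ssr1*) and 8 lower, beside 16.7% and 18.7% of all 14086 genes tested. By role the calls were 4 lower of 14 chaperones, 1 higher and 2 lower of 6 sensors and regulators, 1 higher and 2 lower of 11 ERAD genes and 1 higher of 7 translocon genes. The median log2 fold change of the members was -0.20, against -0.039 over all genes. Without HR1 replicate 1 the calls were 11 higher and 9 lower, beside 26.9% and 26% of genes, and the median was -0.087 against 0.012. The members called higher were then close to the background share, as those called lower were with the 9 tumours. Leaving out LM1 replicate 1, 2 or 3 gave 4, 5 or 7 calls, beside 22.1%, 23.2% and 26.4% of genes called in either direction in those fits, against 35.5% with the 9 tumours. Scaling by library size alone gave 4 higher and 6 lower, beside 19% and 16.5%. The calls of *Canx*, *Crebrf* and *Nploc4* held in every alternative run. Of the 17 alternatives *Atf6* lost its call in 1, without LM1 replicate 1, *Fkbp14* and *Derl2* in 3 each, *Sel1l* in 5 and *Dnajb11* in 8.

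In LM9 versus HR1, 6 members were called higher (*Ern1*, *Wfs1*, *Crebrf*, *Dnajb9*, *Eif2ak3*, *Sec31a*) and 10 lower, beside 20.4% and 21.9% of genes. The sensors and regulators held 4 of the 6 higher calls and 1 of the lower, and the rest were 1 higher and 3 lower chaperones, 3 lower ERAD genes, 3 lower translocon genes and 1 higher COPII gene. The median was -0.22, against -0.049 over all genes. Without HR1 replicate 1 there were 9 higher and 10 lower, beside 27.9% and 27.8%, with medians of -0.018 and -0.010. The calls of *Calr*, *Fkbp14*, *Xbp1*, *Ern1*, *Crebrf*, *Wfs1*, *Sel1l*, *Derl2*, *Vcp*, *Sec61a1* and *Spcs3*, 11 of the 16, held in every alternative run. *Dnajb9* lost its call in 4 of 17 alternatives, *Canx* and *Sec31a* in 5 each and *Eif2ak3* and *Ssr3* in 7 each, leaving out LM9 replicate 1 or 2 among them.

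With both LM lines in 1 contrast against HR1, 4 members were called higher (*Ern1*, *Nploc4*, *Sec31a*, *Wfs1*) and 10 lower, beside 19.9% and 23.6% of genes, or 8 and 11 without HR1 replicate 1, beside 27.5% and 28.5%. The 10 lower were *Xbp1*, *Derl2*, *Calr*, *Spcs3*, *Fkbp14*, *Canx*, *Ssr3*, *Sel1l*, *Sec61a1* and *Dnajb11*, from -1.16 for *Xbp1* to -0.39 for *Dnajb11*, or -0.62 and -0.35 without HR1 replicate 1. *Wfs1*, at 0.34 (adjusted p = 0.0427), was called although its LM1 tumours were not above the HR1 tumours, and had a log2FC of 0.25 (adjusted p = 0.0684) without HR1 replicate 1. Its call was lost in 8 of 16 alternatives, that of *Ssr3* in 6, that of *Sec31a* in 5, that of *Sec61a1* in 2 and that of *Dnajb11* in 1. *Dnajc3*, *Hsp90b1* and *Sec61b* were not called with the 9 tumours and were called higher without HR1 replicate 1, at 0.60, 0.41 and 0.53.

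**Figure D4:**
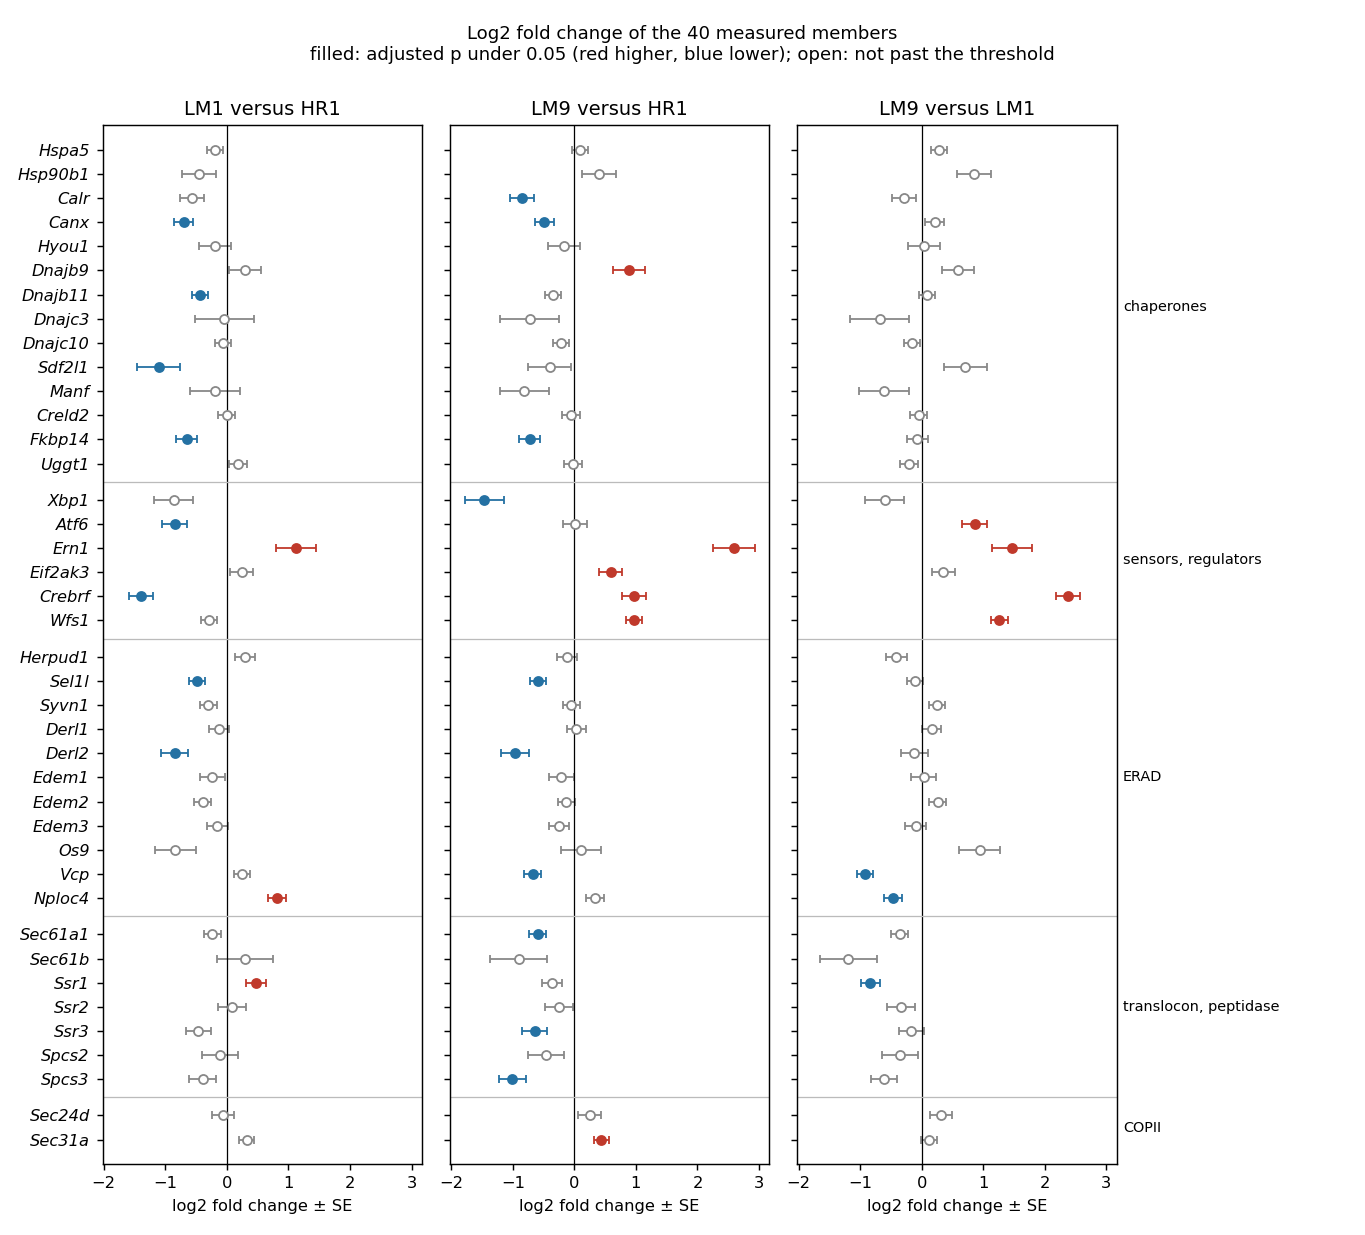
Log2 fold change with its SE (horizontal axis) of the 40 measured genes by role, in LM1 versus HR1, LM9 versus HR1 and LM9 versus LM1, with filled red symbols for genes called higher, filled blue for lower and open grey for those past no threshold. *Ern1* is to the right of 0 in all 3 panels, and the translocon genes are to the left of 0 in LM9 versus LM1.

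**Figure D5:**
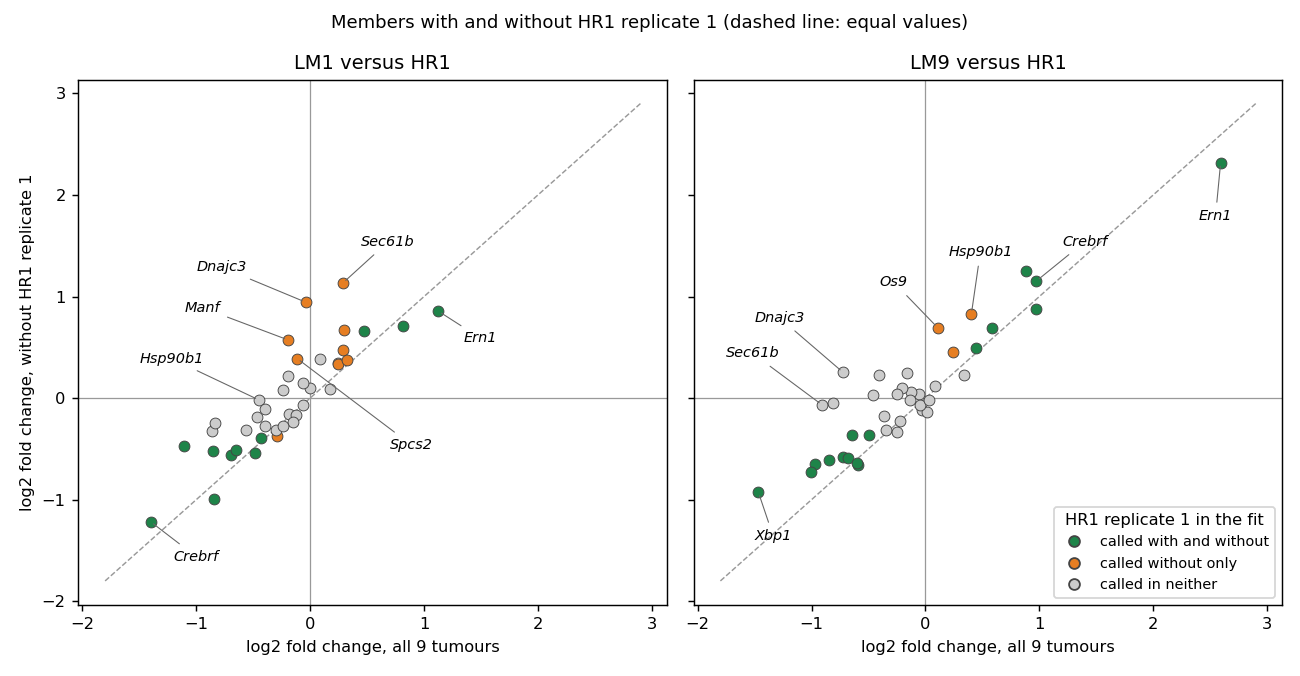
Log2 fold change of each gene with all 9 tumours (horizontal axis) and without HR1 replicate 1 (vertical axis), for LM1 and LM9 versus HR1. Points above the dashed line of equal values, such as *Dnajc3*, *Sec61b* and *Manf*, are genes that were high in that tumour, and no call made with the 9 tumours was lost without it in LM1 or LM9 versus HR1.

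In LM9 versus LM1, 4 members were called higher (*Crebrf*, *Ern1*, *Wfs1*, *Atf6*) and 3 lower (*Vcp*, *Ssr1*, *Nploc4*), beside 11.5% and 10.6% of genes. All 4 higher calls were sensors or regulators, of 6 in that role, and the median over the 40 members was -0.063 against 0.0046 over all genes. The HR1 tumours enter this comparison through the shared scaling, filter and estimate of the spread. With only LM1 and LM9 in the fit, 9 members were called higher and 13 lower, beside 28.3% and 28% of genes, and with HR1 replicate 1 left out 8 and 11, beside 22.9% and 22.5%. The groups did not overlap in 28 of the 40 members, 12 higher and 16 lower, beside 31.9% and 31.1% of genes. Without LM1 replicate 1, LM1 replicate 3 or LM9 replicate 1, 4 members were called in each case, beside 8.16%, 9.68% and 8.51% of genes in either direction, against 22% with the 9 tumours. Scaling by library size alone gave 4 higher and 5 lower, beside 9.47% and 12.7%. The calls of *Crebrf*, *Wfs1*, *Vcp* and *Ssr1* held in every alternative run, and *Ern1* lost its call in 3 of 17 and *Atf6* in 5 of 17, all of them fits without an LM1 or LM9 tumour.

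The fit of LM1 and LM9 alone gave values for the genes whose groups were apart. *Sec61b* was lower in LM9, with a log2FC of -1.21 (adjusted p = 2.97e-05), and so were the other translocon and peptidase genes *Ssr1*, *Sec61a1*, *Ssr2*, *Spcs2* and *Spcs3*, or 6 of 7. This fit called 28% of all genes lower, and with the 9 tumours 1 of the 7 was called. The other translocon genes were not counted in this fit. *Dnajc3* was lower with a log2FC of -0.70 (adjusted p = 0.000128), *Manf* with a log2FC of -0.63 (adjusted p = 0.000633) and *Xbp1* with a log2FC of -0.61 (adjusted p = 0.000716). *Os9* was higher with a log2FC of 0.93 (adjusted p = 2.97e-05), *Hsp90b1* with a log2FC of 0.84 (adjusted p = 0.000155) and *Sdf2l1* with a log2FC of 0.69 (adjusted p = 0.000335). *Hspa5* had a log2FC of 0.26 (adjusted p = 0.0595), so chaperone genes lay on both sides of 0.

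The 9 measured members with ERSE or ERSE-II in their window included *Hspa5*, *Hsp90b1* and *Dnajc3*. In LM1 versus HR1 edgeR called 2 of the 9 lower (*Canx*, *Dnajb11*), beside 18.7% of all genes, and in LM9 versus HR1 2 (*Calr*, *Canx*), beside 21.9%, which are shares near the background. DESeq2 called 3 lower in each, beside 22.3% and 25.4%, and limma-voom 2 in each, beside 16.4% and 18.9%. In these comparisons edgeR called 0 higher, beside 16.7% and 20.4% of genes, with 0 higher at an unadjusted p under 0.05, beside 22.1% and 24.7%. DESeq2 called 0 higher, beside 19.9% and 22.7%, and limma-voom 0, beside 19.7% and 23%, but edgeR called 2 and 1 higher without HR1 replicate 1, beside 26.9% and 27.9%. In LM9 versus LM1 edgeR called 0 of the 9, beside 11.5% higher and 10.6% lower of all genes, with 1 higher and 1 lower at an unadjusted p under 0.05, beside 19% and 18.5%. DESeq2 and limma-voom each called 1 higher and 0 lower, beside 15.7% and 15.3% by DESeq2 and 13.1% and 11.5% by limma-voom, and edgeR without HR1 replicate 1 called 1 higher and 2 lower, beside 22.9% and 22.5%. The log2 fold changes of the 9 in LM9 versus LM1 ran from -0.68 for *Dnajc3* to 0.85 for *Hsp90b1*, whose windows both hold ERSE. Of the 24 members whose window held neither, 3 were called higher and 5 lower in LM1 versus HR1 and 6 and 6 in LM9 versus HR1, beside the same shares of genes with the 9 tumours. The remaining 7 members had no window in the table.

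Of 58 other genes of these pathways, a list drawn up by function, all were measured. In LM1 versus HR1, 4 were called higher and 11 lower (6.90% and 19.0%, beside 16.7% and 18.7% of all genes). The counts in LM9 versus HR1 were 9 and 15 (15.5% and 25.9%, beside 20.4% and 21.9%), and in LM9 versus LM1 5 and 5 (8.62% each, beside 11.5% and 10.6%). Without HR1 replicate 1 they were 10 and 18, beside 26.9% and 26% of genes, 14 and 22, beside 27.9% and 27.8%, and 10 and 15, beside 22.9% and 22.5%. The genes *Ddit3* (CHOP) and *Ppp1r15a* (GADD34, which guides the phosphatase of eIF2α) were highest in LM9. *Ddit3* was at 74.5, 142 and 81.6 CPM in HR1, 109, 98 and 110.1 CPM in LM1 and 461, 427 and 413 CPM in LM9, with a log2 fold change of 2.13 (adjusted p = 0.000384, or 1.96 without HR1 replicate 1) in LM9 versus HR1 and 2.04 (adjusted p = 0.0014) in LM9 versus LM1. *Ppp1r15a* had a log2FC of 1.16 (adjusted p = 0.00366, or 1.00 without HR1 replicate 1) and 1.71 (adjusted p = 0.00199) in the same order of comparisons. *Sil1*, an exchange factor for BiP, was higher in LM9 versus LM1, with a log2FC of 1.13 (adjusted p = 0.00366).

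The deubiquitinase *Yod1*, which works with VCP, was at 0.833 to 0.931 CPM in HR1, 5.38 to 9.26 CPM in LM1 and 7.56 to 14.6 CPM in LM9. It rose against HR1 in both LM lines, with a log2FC of 3.06 (adjusted p = 0.00039, or 3.10 without HR1 replicate 1) in LM1 and 3.60 (adjusted p = 0.000168, or 3.63 without HR1 replicate 1) in LM9. *Creb3l1*, an ER-bound transcription factor, rose in LM1 versus HR1, with a log2FC of 1.74 (adjusted p = 0.0364, or 2.86 without HR1 replicate 1). It was at 235, 59 and 45.4 CPM in HR1, 362 to 384 CPM in LM1 and 202 to 261 CPM in LM9, so the LM9 tumours also lay above HR1 replicates 2 and 3. *Srp68*, of the signal recognition particle, rose in LM1 versus HR1, with a log2FC of 0.84 (adjusted p = 0.00523, or 0.95 without HR1 replicate 1), and in LM9 versus HR1, with a log2FC of 1.05 (adjusted p = 0.00165, or 1.16 without HR1 replicate 1). *Srp9*, another subunit of that particle, fell in LM9 versus HR1, with a log2FC of -1.09 (adjusted p = 0.00549, or -0.81 without HR1 replicate 1), and in LM9 versus LM1, with a log2FC of -1.01 (adjusted p = 0.0154).

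The largest decreases among these other genes in LM1 versus HR1 were those of the glycanase *Ngly1*, -1.33 (adjusted p = 0.00114, or -1.26 without HR1 replicate 1), the ligase *Rnf5*, -1.24 (adjusted p = 0.00158, or -1.22 without HR1 replicate 1), and the signal peptidase subunit *Spcs1*, -1.12 (adjusted p = 0.00102, or -1.15 without HR1 replicate 1). *Spcs1* and *Ngly1* also fell in LM9 versus HR1, with a log2FC of -1.30 (adjusted p = 0.000454, or -1.34 without HR1 replicate 1) and -1.18 (adjusted p = 0.00164, or -1.11 without HR1 replicate 1). *Uggt2* was called lower in LM9 but was at 0 counts in all LM9 tumours and at no more than 0.266 CPM elsewhere, too few counts to give a fold. *Ube2j1*, the ubiquitin-conjugating enzyme of HRD1, was lower in LM9 versus LM1, with a log2FC of -0.59 (adjusted p = 0.0285).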

How the data were processed

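RNA was sequenced from GFP-positive cells sorted from 9 tumours, 3 per model, with groups and replicate numbers taken from the labels. Per the methods, the authors made stranded libraries, used STAR to align single-end reads to mm10, and 5′ ends were counted over the union of each gene's exons with QuasR. The strand setting and the treatment of reads with several matches are not given in the sources used here. The deposited values are whole-number counts per gene and tumour, not normalized, for 14108 Entrez genes, of which 14085 matched a RefSeq symbol. No listed gene had a third-highest count under 7.

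Counts were scaled by TMM (factors 0.928 to 1.05) and filtered with filterByExpr, which left 14086 genes and removed 22. Groups were compared with edgeR 4.0.16 (quasi-likelihood F-test) in R 4.3.3 with robust shrinkage, 1 model over the 3 groups and no covariate, with Benjamini-Hochberg adjustment over all genes tested and a threshold of 0.05. The limma-voom framework (limma 3.58.1) that the authors name, DESeq2 1.42.0, other scalings and filters, a replicate block and leaving out each tumour were alternatives. The scripts were tested on simulated data. No 2 tumours of a group agreed within sampling noise. Depth was 32393958 to 46681945 counts, and with PCR reads that carry no molecular identifiers, counts are not separate molecules. Levels per kilobase used GENCODE M21 exon unions, which can differ from the exons the authors used. Places of genes are those of GENCODE M21 on GRCm38, the same assembly as mm10. Full values were given for *Hspa5*, *Xbp1*, *Atf6*, *Ern1*, *Eif2ak3*, *Herpud1* and the 4 largest called increases and decreases of each pairwise comparison, and for other pathway genes the 3 largest called in each direction were named, with the values of *Srp68* and *Srp9* in LM9 versus HR1 chosen after they were seen. Members and lists were chosen with earlier results of these data known.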

Additional observations from a re-analysis of the deposited data

Results flagged for a closer look

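For 7 members the difference from HR1 was not the same in LM1 and LM9 by the test of that difference itself, LM9 versus LM1 in the edgeR quasi-likelihood fit, with Benjamini-Hochberg adjusted p. The values are log2 fold changes. *Crebrf* was the member whose differences from HR1 passed in opposite directions with the 9 tumours, -1.40 in LM1 and 0.97 in LM9. Between the lines it differed by 2.37 (SE 0.20, adjusted p = 0.000491). Without HR1 replicate 1 *Wfs1*, lower in LM1 and higher in LM9, and *Vcp*, the reverse, also passed in opposite directions. *Ern1* was above HR1 in both lines and by 1.47 (adjusted p = 0.0149) more in LM9. *Wfs1* differed by 1.26 (adjusted p = 0.000978) and *Atf6* by 0.86 (adjusted p = 0.0182). The members lower in LM9 were *Vcp*, -0.92 (adjusted p = 0.0032), *Ssr1*, -0.83 (adjusted p = 0.00853), and *Nploc4*, -0.48 (adjusted p = 0.0469). These 7 are 17.5% of the 40 members, beside 22% of all genes called in either direction. The *Nploc4* call was lost when any LM1 or LM9 tumour was left out, that of *Atf6* without LM1 replicate 1 or 3 or any LM9 tumour, and that of *Ern1* without LM1 replicate 1 or 3 or LM9 replicate 1.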

How the results depend on the processing

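The median log2 fold change over the members is a value without a test, and without HR1 replicate 1 it went from -0.21 to -0.017 for LM1 and LM9 together and from -0.22 to -0.018 for LM9 versus HR1. Leaving out 1 tumour at a time gave 10 to 19 members called for LM1 and LM9 together, 4 to 20 for LM1 versus HR1, 11 to 19 for LM9 versus HR1 and 4 to 19 for LM9 versus LM1, beside 35% to 56%, 22.1% to 52.8%, 26.7% to 55.7% and 8.16% to 45.5% of all genes tested. With only the groups compared in the fit the counts were 4, 11 and 22 for LM1 versus HR1, LM9 versus HR1 and LM9 versus LM1, against 11, 16 and 7, beside 22%, 31.2% and 56.3% of genes against 35.5%, 42.3% and 22%. Those fits have fewer tumours and their own filter, scaling and estimate of the spread. DESeq2 called 12 members in LM9 versus LM1, beside 31% of genes. RLE size factors, library size alone, both other filters and limma-voom kept each count within 1.5 times.

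Without HR1 replicate 1 the sign turned for 28 of 160 values, those of the 40 members in 4 comparisons, against 0 to 8 under each other alternative. In 6 of these the new value passed the threshold, and in no other alternative did a value turn and pass in either fit. For LM1 and LM9 together the 6 were *Dnajc3* at 0.60, *Hsp90b1* at 0.41 and *Sec61b* at 0.53, and for LM1 versus HR1 *Dnajc3* at 0.95, *Spcs2* at 0.39 and *Manf* at 0.57. Over the 9 fits that left out a tumour, the lowest values were -0.71 for *Dnajc3*, -0.66 for *Sec61b* and -0.21 for *Hsp90b1* in the first comparison, and -0.37 for *Dnajc3*, -0.35 for *Spcs2* and -0.48 for *Manf* in LM1 versus HR1. The cause was not tested.

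Deviations of same-numbered tumours of different groups had correlations of -0.117 to 0.162, within the -0.198 to 0.203 of differently numbered ones. With 3 tumours in a group such values cannot decide whether the numbers pair the samples. A replicate block gave 12, 9, 13 and 7 members called in the 4 comparisons, in the order above, beside 37.2%, 29.8%, 36% and 16.3% of genes.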
